A study of Mus musculus with 12 samples.

Results

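The genes described here are 10 glycolytic genes that include somatic isozymes and their testis counterparts: Ldha, Ldhb and Ldhc, Pgk1 and Pgk2, Gapdh and Gapdhs, Hk1 and Hk2, and the glucose transporter gene Slc2a3. They were found as the probes whose gene name in the array files is one of these symbols, which gave 20 probes of 55681 on the array. RNA was measured on 1-colour Agilent mouse arrays in GFRα1+, NGN3+ and KIT+ spermatogonia and in whole testes, with 3 arrays per group. All mice were C57BL/6 and 10 to 11 weeks old. GFRα1+ cells were the GFP+ cells of GFRα1-EGFP knock-in mice, with 1 mouse per sample. NGN3+ cells were the GFP+/KIT- cells of Ngn3-EGFP transgenic mice, with 2 mice pooled per sample, and KIT+ cells were the GFP+/KIT+ cells of the same line, with 1 mouse per sample. GFP outlasts Ngn3 expression in that line, so the KIT+ gate rests on persisting GFP. Whole testes came from wild-type littermates of the knock-in mice, without GFP sorting. About 10000 to 20000 cells were used per sorted sample, 500000 per whole testis sample, and 25 ng of RNA was labelled for each array.

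Glycolysis turns glucose into pyruvate, and lactate dehydrogenase interconverts pyruvate and lactate. Male germ cells carry separate genes for several of these steps. Pgk2 is an autosomal retrocopy of the X-linked Pgk1, and X-linked genes are silenced during meiosis. Ldhc and Gapdhs encode enzymes of meiotic and haploid germ cells and of the sperm tail, whereas spermatogonia are usually described as using the somatic forms. Spermatogonia pass through GFRα1+, NGN3+ and KIT+ states before meiosis, so the comparison asks in which of these sorted fractions the transcripts of each form are found. GFRα1+ cells differed from both other fractions in mouse line and gate as well as in state. From NGN3+ cells they also differed in the number of mice pooled. State, line, gate and pooling cannot be told apart in these comparisons.

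The levels below are log2 of the processed signal relative to the array's 75th percentile, so that 0 is that percentile and 1 unit is a doubling. Probes differ in brightness for technical reasons, so levels were compared between samples for a probe and not between probes. Each gene is described by its brightest probe, taken as that with the highest average of all 12 arrays, and all 20 probes were well above background on all 12 arrays. The results turn on probes that tell a testis form from its somatic relative, so 1 such pair is shown aligned. The Ldhc probe A_55_P2153131 (chr7:54131104-54131163, mm9, plus strand) and the Ldha probe A_55_P2141878 (chr7:54107294-54107353, mm9, plus strand) cover matching stretches of both transcripts, with an overlap of 49 bases of which 39 are the same and 10 differ. Capitals mark the bases that differ within the overlap.
Ldhc A_55_P2153131: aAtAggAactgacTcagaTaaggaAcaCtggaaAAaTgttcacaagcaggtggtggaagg
Ldha A_55_P2141878: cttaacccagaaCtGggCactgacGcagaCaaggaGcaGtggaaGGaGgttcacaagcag
The probe for Pgk2 (chr17:40344365-40344424, mm9, minus strand) is shown because that transcript had 1 of the widest ranges over the groups.
Pgk2 A_55_P2051444: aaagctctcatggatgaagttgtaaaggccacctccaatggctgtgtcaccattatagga
No other probe of the array shared a run of 20 bases with the probes for Ldhc, Pgk2, Gapdhs, Hk1, Hk2 or Slc2a3. The Ldhb probe shared such a run with a probe for Gm5514 and the brightest Ldha probe with a probe for Gm11814. The Pgk1 probe shared one with a probe for Pgk1-rs7, a Pgk1-related sequence, and the files place the Pgk1 probe at chr3:57906830-57906894 (mm9) and not on the X chromosome. The 7 Gapdh probes shared runs with 1 to 6 probes of other names each, and 1 of them is placed on chromosome 8. The signals of these Pgk1, Gapdh, Ldhb and Ldha probes are uncertain to that extent, since transcripts of near-identical copies may be in them.

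The arrays lay on 3 slides. GFRα1+ replicates 1 and 2 shared slide 1 with whole testes replicate 1, slide 2 held GFRα1+ replicate 3 and all NGN3+ and KIT+ arrays, and slide 3 held whole testes replicates 2 and 3. The share of probes well above background was 50.1% to 50.8% on GFRα1+ arrays, 59.5% to 65.1% on NGN3+ arrays, 54.8% to 62.0% on KIT+ arrays and 54.8% to 57.6% on whole testes arrays. The 7 spermatogonial markers checked, Gfra1, Neurog3 and Kit among them, had summed linear levels of 181 to 191 in GFRα1+ cells. The sums were 159 to 184 in NGN3+ cells, 190 to 235 in KIT+ cells and 41.3 to 49.6 in whole testes. Stra8 (mean 7.08) was the brightest in KIT+ cells and Ddx4 (5.03) in whole testes, so the sums there mostly follow them. In GFRα1+, NGN3+ and KIT+ cells, Gfra1 averaged 1.65, -1.22 and -3.38 and Neurog3 4.13, 5.23 and 2.77. Kit averaged 1.5, 1.96 and 4.55 in the same order. Neurog3 was thus only 1.1 log2 units higher in NGN3+ than in GFRα1+ cells. In such bulk samples, fewer cells of a type and less RNA per cell cannot be told apart.

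All 3 testis forms were low in GFRα1+ cells and high in NGN3+ and KIT+ cells. Ldhc, the sperm lactate dehydrogenase subunit, had levels of 1.39, 0.84 and 1.69 in GFRα1+ cells, 6.13, 6.83 and 6.96 in NGN3+ cells, 7.05, 6.42 and 6.84 in KIT+ cells, and 8.90, 9.09 and 9.10 in whole testes. Every NGN3+ and KIT+ array was thus far above every GFRα1+ array, and the NGN3+ and KIT+ arrays overlapped. NGN3+ over GFRα1+ cells gave a log2 ratio of 5.33 (SE 0.29, limma adjusted p = 2.75e-06), a 40.3-fold difference. That of KIT+ over NGN3+ cells was 0.13 (95% confidence interval -0.53 to 0.79, adjusted p = 0.77). The Ldhc probe printed above gave 5.07 (SE 0.30) and 0.19 (SE 0.30) for these comparisons.

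Pgk2, the testis phosphoglycerate kinase, stood at -2.24, -2.23 and -1.07 in GFRα1+ cells, 3.24, 4.07 and 3.69 in NGN3+ cells, 4.57, 3.58 and 4.23 in KIT+ cells, and 7.30, 7.29 and 7.40 in whole testes. GFRα1+ replicate 3 was the highest of its group, and still far below every NGN3+ array. For NGN3+ over GFRα1+ cells the log2 ratio reached 5.51 (SE 0.38, adjusted p = 8.06e-06), and for KIT+ over NGN3+ cells 0.46 (95% confidence interval -0.41 to 1.33, adjusted p = 0.404). Within slide 2, where GFRα1+ replicate 3 is the only GFRα1+ array and its spread was taken from the other groups, the first of these ratios was 4.73 (adjusted p = 0.000332).

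Gapdhs, the sperm form of glyceraldehyde-3-phosphate dehydrogenase, showed levels of -0.44, -1.71 and -0.14 in GFRα1+ cells, 4.58, 5.16 and 5.06 in NGN3+ cells, 5.76, 5.05 and 5.46 in KIT+ cells, and 8.62, 8.58 and 8.59 in whole testes. GFRα1+ replicate 2 was the lowest sample and the whole testes arrays lay closest together. NGN3+ exceeded GFRα1+ cells by a log2 ratio of 5.70 (SE 0.39, adjusted p = 7.5e-06), or 5.08 within slide 2 (adjusted p = 0.000158). Between KIT+ and NGN3+ cells the ratio was 0.49 (95% confidence interval -0.40 to 1.37, adjusted p = 0.384). A probe that the files name only by the transcript ENSMUST00000076658, and describe as this gene, was outside the rule for members. Its levels averaged -0.54 ± 0.80 in GFRα1+ cells, 5.13 ± 0.37 in NGN3+ cells, 5.58 ± 0.36 in KIT+ cells and 9.02 ± 0.11 in whole testes (SD, n = 3 each), the same order as for the member probe.

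**Figure D1:**
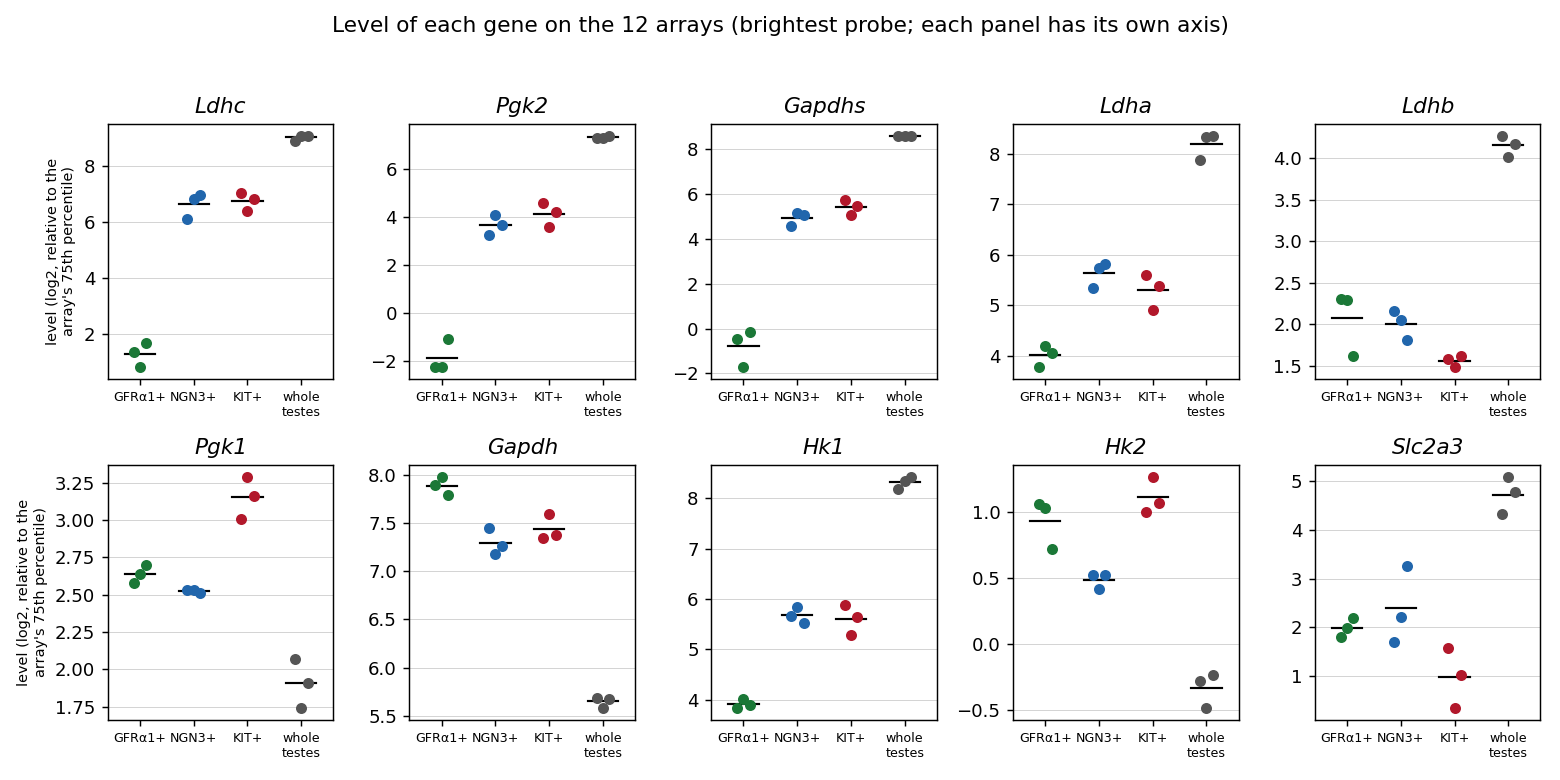
Level of each gene on the 12 arrays by its brightest probe, with groups along the horizontal axis and a range of its own in each panel. The vertical axis is log2 signal relative to the array's 75th percentile, points are arrays and black lines group means, and Ldhc, Pgk2 and Gapdhs are low on the 3 GFRα1+ arrays and high on all others, and Pgk1, Gapdh and Hk2 are lowest in whole testes.

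Of the 10 genes, 5 rose and 2 fell in NGN3+ cells against GFRα1+ cells, and 3 did not pass. Over all 31839 probes tested, 55.2% passed this comparison, 18.9% higher and 36.3% lower, so that a call by itself was common. The median log2 ratio of the 10 genes was 1.01, against -0.20 for all probes tested. When the 75th percentile was taken only among probes detected above background across all 12 arrays, called the narrower percentile here, the median of all probes was -0.02 and the calls divided into 7547 higher and 7969 lower, against 6023 higher and 11558 lower. The testis forms, Ldha and Hk1 were the members that rose, and each also passed within slide 2.

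Among the somatic lactate dehydrogenase genes, Ldha was higher in NGN3+ than in GFRα1+ cells and Ldhb did not pass. Ldha, the muscle-type subunit that favours lactate formation, had levels of 3.78, 4.20 and 4.05 in GFRα1+ cells, 5.34, 5.74 and 5.81 in NGN3+ cells, 5.60, 4.90 and 5.38 in KIT+ cells, and 7.88, 8.34 and 8.36 in whole testes. NGN3+ exceeded GFRα1+ cells by 1.62 on the log2 scale (SE 0.21, adjusted p = 0.000291), and 1.71 with each of its other 2 probes. KIT+ and NGN3+ cells overlapped, with a ratio of -0.34 (95% confidence interval -0.81 to 0.14).

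Ldhb, the heart-type subunit, stood at 2.31, 2.29 and 1.62 in GFRα1+ cells, 2.16, 2.05 and 1.81 in NGN3+ cells, 1.59, 1.49 and 1.62 in KIT+ cells, and 4.27, 4.01 and 4.17 in whole testes. NGN3+ and GFRα1+ cells overlapped, with a log2 ratio of -0.06 (adjusted p = 0.797) that turned to 0.12 with the narrower percentile and to 0.39 within slide 2. The KIT+ arrays lay at the low end, with a ratio of -0.50 over GFRα1+ cells (SE 0.19, adjusted p = 0.0423) that was -0.05 within slide 2 (adjusted p = 0.824). Against NGN3+ cells the KIT+ arrays did not overlap, and the ratio was -0.44 (adjusted p = 0.113, or 0.0339 within slide 2).

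Pgk1, the somatic phosphoglycerate kinase, had levels of 2.58, 2.64 and 2.70 in GFRα1+ cells, 2.53, 2.53 and 2.51 in NGN3+ cells, 3.01, 3.29 and 3.16 in KIT+ cells, and 2.07, 1.74 and 1.91 in whole testes. KIT+ cells were the highest group and overlapped with none. KIT+ exceeded NGN3+ cells by 0.63 on the log2 scale (SE 0.10, adjusted p = 0.00203), whereas NGN3+ over GFRα1+ cells gave -0.12 (adjusted p = 0.363), or 0.06 with the narrower percentile. The Pgk1-rs7 probe, which shares part of its sequence, gave 0.59 (SE 0.11, adjusted p = 0.00311) and -0.09 (adjusted p = 0.48), in the same order.

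Gapdh, the glyceraldehyde-3-phosphate dehydrogenase of most tissues, had levels of 7.89, 7.98 and 7.79 in GFRα1+ cells, 7.45, 7.18 and 7.26 in NGN3+ cells, 7.34, 7.59 and 7.38 in KIT+ cells, and 5.69, 5.58 and 5.68 in whole testes. NGN3+ cells lay below GFRα1+ cells without overlap (log2 ratio -0.59, SE 0.12, adjusted p = 0.00348), and the 7 probes gave -0.33 to -0.82, with 1 (A_55_P2081133, -0.33, adjusted p = 0.0681) that did not pass. The call did not hold under every scaling or on 1 slide: the ratio was -0.15 after quantile normalization (adjusted p = 0.119) and -0.49 within slide 2 (adjusted p = 0.0738).

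Gene for gene, the balance of testis over somatic form was measured as the difference of the log2 levels of both probes on the same array, which does not depend on the factor by which an array is scaled. The value itself has no meaning across probes, but its change between groups has. Gapdhs minus Gapdh was -8.33, -9.69 and -7.93 on GFRα1+ arrays, -2.87, -2.02 and -2.20 on NGN3+ arrays, -1.58, -2.54 and -1.92 on KIT+ arrays, and 2.94, 3.00 and 2.91 in whole testes. The 3 GFRα1+ arrays lay lowest and the NGN3+ and KIT+ arrays between them and whole testes. The balance shifted by 6.29 between NGN3+ and GFRα1+ cells, and differed from whole testes by -5.31 in NGN3+ cells and by -4.97 in KIT+ cells.

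The shift between NGN3+ and GFRα1+ cells was 5.63 for Pgk2 minus Pgk1, 5.40 for Ldhc minus Ldhb and 3.71 for Ldhc minus Ldha. In all 4 pairs the groups did not overlap, and the two-sided exact permutation test gave p = 0.1, the smallest that 3 arrays against 3 allow, or 0.133 after adjustment over 24 comparisons. Within slide 2 the shifts were 5.57 for Gapdhs minus Gapdh, 4.91 for Pgk2 minus Pgk1, 4.56 for Ldhc minus Ldhb and 3.36 for Ldhc minus Ldha. Between KIT+ and NGN3+ cells they were at most 0.57, and Ldhc minus Ldha alone did not overlap, with 1.46, 1.52 and 1.46 on KIT+ arrays and 0.79, 1.1 and 1.15 on NGN3+ arrays (exact p = 0.1).

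**Figure D2:**
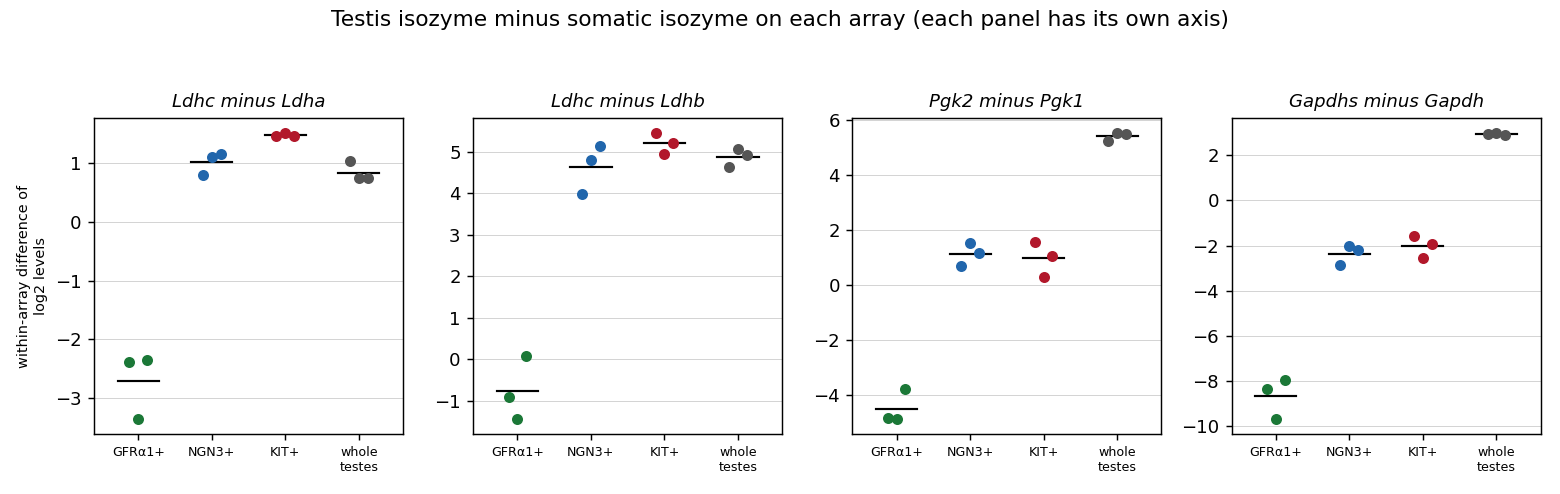
Testis isozyme minus somatic isozyme on each of the 12 arrays, by the brightest probes. The vertical axis is the within-array difference of log2 levels, with its own range in each panel, points are arrays and black lines are group means. GFRα1+ arrays lie lowest in all 4 panels, and for Pgk2 minus Pgk1 and Gapdhs minus Gapdh the NGN3+ and KIT+ arrays lie below whole testes.

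Against whole testes, the direction of the lactate dehydrogenase pairs turned with the Ldhc probe. By the brightest probes, Ldhc minus Ldha in NGN3+ cells was 0.17 above whole testes (exact p = 0.2) and in KIT+ cells 0.64 above (exact p = 0.1). With the Ldhc probe A_55_P2153131 and the same Ldha probe the differences from whole testes were -0.85 in NGN3+ cells and -0.32 in KIT+ cells (exact p = 0.1 each). Over the 5 other pairs of Ldhc and Ldha probes, the shift of NGN3+ over GFRα1+ cells was 3.36 to 3.63. Pgk2 minus Pgk1 differed from whole testes by -4.28 in NGN3+ cells and by -4.45 in KIT+ cells (exact p = 0.1 each). Whether the pairs differ from each other was not tested.

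Hexokinases phosphorylate glucose at the entry to the pathway, and the 2 genes had different courses. Hk1, whose probes are listed against both of its RefSeq transcripts in the files and so do not separate them, had levels of 3.83, 4.01 and 3.90 in GFRα1+ cells, 5.66, 5.84 and 5.52 in NGN3+ cells, 5.89, 5.28 and 5.65 in KIT+ cells, and 8.19, 8.35 and 8.43 in whole testes. NGN3+ exceeded GFRα1+ cells by 1.76 on the log2 scale (SE 0.16, adjusted p = 4.87e-05), with 1.70 for the other probe, and KIT+ and NGN3+ cells overlapped (ratio -0.07, 95% confidence interval -0.45 to 0.31).

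Hk2, the inducible hexokinase, stood at 1.06, 1.03 and 0.72 in GFRα1+ cells, 0.52, 0.42 and 0.52 in NGN3+ cells, 1.0, 1.27 and 1.07 in KIT+ cells, and -0.28, -0.49 and -0.24 in whole testes. NGN3+ cells had the lowest levels among the fractions. KIT+ exceeded NGN3+ cells by 0.63 on the log2 scale (SE 0.13, adjusted p = 0.00567). NGN3+ over GFRα1+ cells gave a ratio of -0.45 (SE 0.13, adjusted p = 0.0161) and did not pass within slide 2 (-0.23, adjusted p = 0.298) or with the narrower percentile (-0.27, adjusted p = 0.0821).

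Slc2a3, a high-affinity glucose transporter, had levels of 1.80, 1.98 and 2.19 in GFRα1+ cells, 1.71, 2.22 and 3.26 in NGN3+ cells, 1.58, 0.35 and 1.02 in KIT+ cells, and 4.31, 5.08 and 4.76 in whole testes. The NGN3+ and KIT+ arrays were widely spread, and KIT+ replicate 1 lay close below NGN3+ replicate 1. The log2 ratio of KIT+ over NGN3+ cells was -1.41 (SE 0.41, adjusted p = 0.0281). It did not pass without NGN3+ replicate 2 (-1.50, adjusted p = 0.0618), NGN3+ replicate 3 (-0.98, adjusted p = 0.0669), KIT+ replicate 2 (-1.1, adjusted p = 0.0977) or KIT+ replicate 3 (-1.43, adjusted p = 0.0716).

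**Figure D3:**
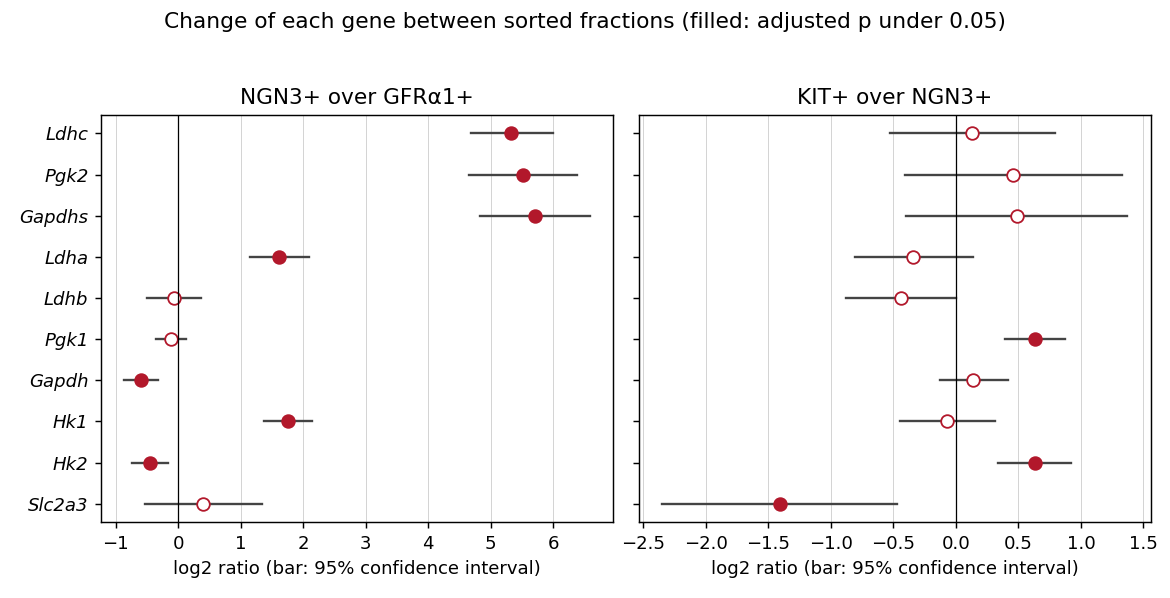
Log2 ratio of each gene between NGN3+ and GFRα1+ cells (left) and between KIT+ and NGN3+ cells (right), with 95% confidence intervals from limma and filled points for an adjusted p under 0.05. On the left, Ldhc, Pgk2 and Gapdhs lie between 5.33 and 5.70, and on the right Pgk1 and Hk2 pass above 0 and Slc2a3 below.

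Between KIT+ and NGN3+ cells, 2 of the 10 genes were higher (Pgk1 and Hk2), 1 was lower (Slc2a3) and 7 did not pass, where 33.9% of 32306 probes passed, 17.0% higher and 16.9% lower. Between KIT+ and GFRα1+ cells, 6 were higher and 2 lower, where 65.3% of probes passed, 25.6% higher and 39.7% lower. These were the 5 genes that rose in NGN3+ cells plus Pgk1 (0.51, adjusted p = 0.00219), and Gapdh (-0.45, adjusted p = 0.00966, but 0.09 after quantile normalization) and Ldhb as the lower ones. The Gapdh probes A_55_P2037425 (-0.22, adjusted p = 0.151), A_55_P2081133 (-0.26, adjusted p = 0.118) and A_55_P1984284 (-0.17, adjusted p = 0.24) did not pass, whereas its other probes did. Within slide 2 Pgk1 (0.45, adjusted p = 0.0522), Gapdh (-0.35, adjusted p = 0.15) and Ldhb did not pass. These comparisons share the KIT+ samples or the GFRα1+ samples with others above.

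Against whole testes, the same 3 genes were higher and the same 7 lower in each fraction. Of all probes, 87.3% passed for GFRα1+ cells (50.7% higher and 36.7% lower), 83.1% for NGN3+ cells (44.7% and 38.3%) and 84.5% for KIT+ cells (43.9% and 40.6%), so that most probes were called. The median log2 ratio of all probes in GFRα1+ cells was 0.44, or 0.04 with the narrower percentile. The genes that were higher were Gapdh, by a log2 ratio of 2.24 for GFRα1+, 1.65 for NGN3+ and 1.79 for KIT+ fractions, Hk2 (1.28, 0.83 and 1.45 in the same order) and Pgk1 (0.73, 0.61 and 1.25). NGN3+ and KIT+ cells never shared a slide with whole testes, and a slide term for these comparisons rests on the GFRα1+ arrays, which lay on slides 1 and 2, and on whole testes replicate 1. With that term the Pgk1 ratio of NGN3+ cells over whole testes was 0.36 (adjusted p = 0.169), and every other call of a member against whole testes was kept, with Pgk2 at -4.81 and Gapdhs at -4.62 in NGN3+ cells over whole testes.

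In GFRα1+ cells the testis forms were the members with the lowest share of the whole testis signal. Ldhc reached 0.473% of the whole testis level for GFRα1+, 19.1% for NGN3+ and 20.9% for KIT+ fractions, and its other probe 0.281%, 9.43% and 10.8%. Pgk2 reached 0.173%, 7.89% and 10.9%, and Gapdhs 0.152%, 7.90% and 11.1%, in the same order of fractions. Ldha (5.51%, 16.9% and 13.4%) and Hk1 (4.71%, 16.0% and 15.2%) had shares above these in GFRα1+ cells.

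Markers of later germ cells were also higher in NGN3+ and KIT+ cells. All 12 spermatid markers, Prm1, Tnp1 and Acrv1 among them, rose in NGN3+ cells against GFRα1+ cells, and all 12 also within slide 2. Their share of the whole testis level had a median of 0.377% for GFRα1+ (0.154% to 2.29%), 10.4% for NGN3+ (6.85% to 60%) and 14.0% for KIT+ fractions (8.06% to 67.9%). Their summed linear level was 29.0 to 66.0 in GFRα1+ cells, 1380 to 1710 in NGN3+ cells, 1650 to 2080 in KIT+ cells and 5540 to 6960 in whole testes, and Acrv1 and Catsper3 were not well above background on any GFRα1+ array. None of the 12 passed between KIT+ and NGN3+ cells. In GFRα1+ cells the share of Pgk2 (0.173%) was below the markers' median and that of Gapdhs (0.152%) below their lowest value, and in NGN3+ and KIT+ cells both shares lay within the markers' range. The share of Ldhc lay within that range in each fraction. It was above the markers' median by the brightest probe (0.473%, 19.1% and 20.9%) and below it by the other probe (0.281%, 9.43% and 10.8%).

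Of 8 spermatocyte markers, 7 rose and 1 fell in NGN3+ cells against GFRα1+ cells, and their summed level was 23.4 to 26.3 in GFRα1+ cells, 66.5 to 109 in NGN3+ cells, 85.6 to 123 in KIT+ cells and 703 to 772 in whole testes. The marker that fell was Hormad1 (mean 0.60 in GFRα1+ and -0.19 in NGN3+ cells). Ybx2 (8.43) and Adam3 (8.03) were the brightest in whole testes, so the sum there mostly follows them. Sertoli cell markers summed to 11.1 to 23.3 in GFRα1+ cells, 23.2 to 34.1 in NGN3+ cells, 27.8 to 33.9 in KIT+ cells and 236 to 282 in whole testes, and 6 of 9 tested markers rose in NGN3+ cells against GFRα1+ cells. All 5 peritubular myoid markers rose in NGN3+ cells against GFRα1+ cells as well. Their sums were 0.414 to 0.463 in GFRα1+ cells and 11.2 to 17.1 in NGN3+ cells. In KIT+ cells they were 11.5 to 16.4, and in whole testes 128 to 151. Actg2 was the brightest of the 5 in every group (means -2.1, 3.28, 3.67 and 7 in that order). The sums mostly follow Actg2, so similar sums in NGN3+ and KIT+ cells do not show that the other myoid markers were similar. In KIT+ against NGN3+ cells, 3 of the 5 fell, namely Acta2 (log2 ratio -2.24), Myh11 (at least 4.8-fold lower, well above background on 2 of 3 KIT+ arrays) and Des (at least 2.78-fold lower, on 1 of 3), whereas Actg2 (0.38) and Cnn1 (0.46) did not pass. Fshr, a Sertoli cell marker, was not well above background on any sorted array.

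Endothelial, Leydig cell and leukocyte markers had lower sums in all NGN3+ than in all GFRα1+ fractions, and red blood cell markers had higher sums. Endothelial markers summed to 10.0 to 15.7 in GFRα1+ cells, 5.12 to 7.18 in NGN3+ cells, 4.08 to 4.54 in KIT+ cells and 10.4 to 11.9 in whole testes, and 2 of 5 fell and none rose in NGN3+ cells. Leydig cell markers summed to 5.99 to 10.8, 2.21 to 3.46, 2.51 to 3.07 and 12.9 to 17.4 in the same order of groups, and macrophage and leukocyte markers to 1.48 to 2.55, 0.882 to 1.38, 1.02 to 1.22 and 2.42 to 2.64, with 3 of 5 markers of each list not tested in NGN3+ over GFRα1+ cells. Of the 2 Leydig cell markers tested there, Cyp17a1 fell (mean 3.08 in GFRα1+ and 1.33 in NGN3+ cells) and Star did not pass. Of the 2 leukocyte markers tested, Csf1r fell (0.98 and -0.12) and Ptprc rose (-5.13 and -4.21). Cyp17a1 and Csf1r were the brightest of their lists in both fractions, so the sums mostly follow them. Red blood cell markers summed to 0.103 to 0.151, 0.387 to 0.417, 0.532 to 1.1 and 8.65 to 10.5 in the same order of groups. Of these 3 markers only Alas2 was tested in NGN3+ over GFRα1+ cells, and it rose (mean -3.42 in GFRα1+ and -1.59 in NGN3+ cells). Hbb-b1 was not well above background on any GFRα1+ or NGN3+ array. In KIT+ cells Hba-a1 ranged from -6.41 to -1.26, with the highest level in replicate 3. The testis forms, Ldha and Hk1 rose in NGN3+ cells together with all spermatid and most spermatocyte markers, and the part of these markers' cells in the result was not tested.

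**Figure D4:**
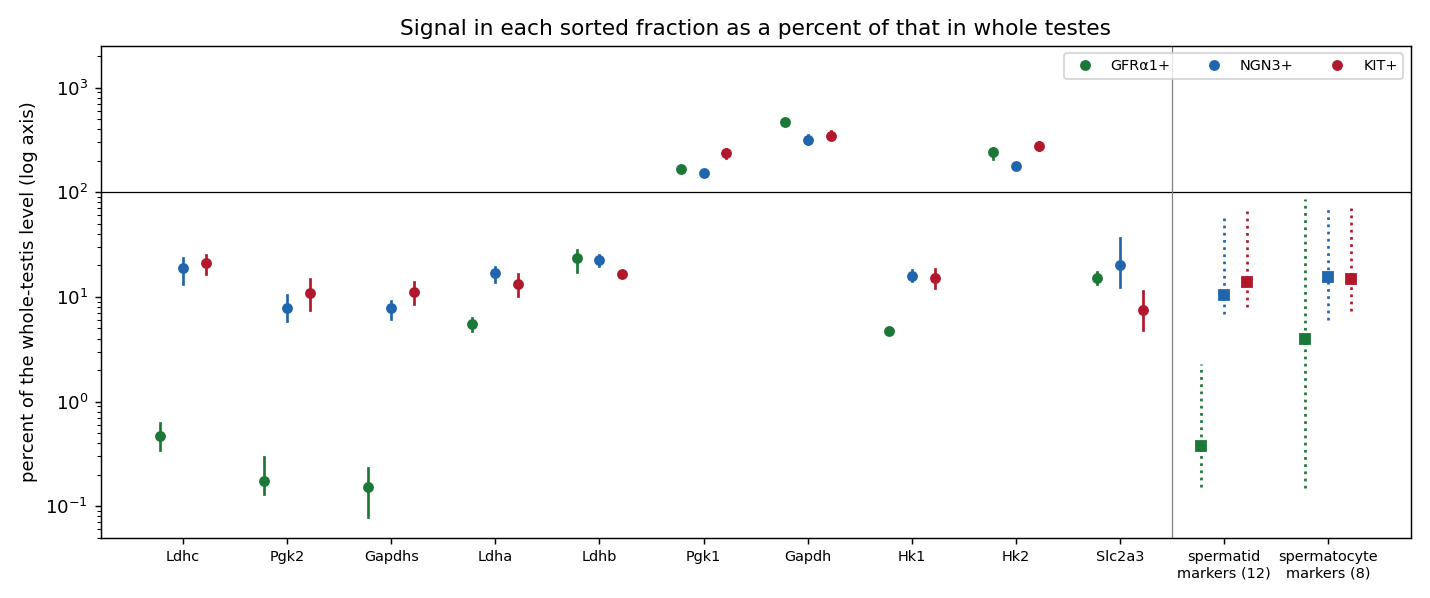
Signal of each gene in the sorted fractions as a percent of its mean in whole testes, on a log axis, with points for group means, lines for the range of the 3 arrays, and at the right squares for the medians and dotted lines for the ranges of 12 spermatid and 8 spermatocyte markers. Ldhc, Pgk2, Gapdhs and the spermatid markers lie below 1% in GFRα1+ cells by their mean or median and above 7% in the other fractions, and Pgk1, Gapdh and Hk2 lie above 100%.

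The genes whose course over the 12 arrays was most like that of the testis forms were found by the root mean square difference of the log2 levels, each probe centred on its mean, among 18423 genes. For Ldhc they were Tulp2 (0.25), Tnp2 (0.27) and Tcp11 (0.29), of which Tnp2 encodes a transition protein of spermatid chromatin. For Pgk2 they were Actl9 (0.14), Tssk6 (0.15), a kinase gene of the testis, and 4930571K23Rik (0.15). For Gapdhs they were Prr27 (0.12), Izumo2 (0.13) and 4933411K16Rik (0.14). This likeness is a description, since the points share arrays and groups.

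The rest of the pathway was read from a list of 45 genes, of which 44 had a probe. Between NGN3+ and GFRα1+ cells, 38 were tested, 11 rose and 8 fell, with a median log2 ratio of -0.09, where 18.9% of all probes were higher and 36.3% lower. Other testis copies rose with the members: Aldoart2, an aldolase retrogene, by 5.69 (SE 0.30), Ldhal6b, a lactate dehydrogenase-like gene, by 4.47 (SE 0.35), and Eno4, the sperm enolase, by 1.90 (SE 0.21). Pdha2, the testis form of a pyruvate dehydrogenase subunit, did not pass (0.30, SE 0.22), and Aldoart1 was not matched and is not analysed here. Genes without a testis name also rose, with Pgam2, the muscle-type phosphoglycerate mutase, at 5.55 (SE 0.29), the fructose transporter gene Slc2a5 at 4.61 (SE 0.28), the monocarboxylate transporter gene Slc16a7 at 2.87 (SE 0.44), Pfkfb3, an activator of flux through phosphofructokinase, at 1.39 (SE 0.14) and Tpi1, triosephosphate isomerase, at 1.23 (SE 0.20).

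The largest falls in NGN3+ cells were Pdha1, the X-linked subunit of pyruvate dehydrogenase, at -1.23 (SE 0.16, adjusted p = 0.000287), and Pdk1, a kinase that inhibits that enzyme, at -0.99 (SE 0.15, adjusted p = 0.000653). Of the 19 other glycolytic enzymes, 14 were tested, and 3 rose and none fell, with 11 that did not pass. Of 12 tested genes that control flux, 3 rose and 6 fell, where 18.9% of all probes were higher and 36.3% lower, and the lists were not tested against each other. Slide 2 held a single GFRα1+ array, so calls of the list within that slide are not given.

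Between KIT+ and NGN3+ cells, 41 genes of the list were tested, and 10 rose and 10 fell, with a median log2 ratio of 0.15. Of all probes tested, 17.0% were higher and 16.9% lower in this comparison. The largest falls were in Slc2a1, the basal glucose transporter, at -2.31 (SE 0.18), Pdk1 at -2.27 (SE 0.15), Pdha1 at -1.62 (SE 0.16), the pyruvate kinase gene Pkm at -1.27 (SE 0.13), the phosphofructokinase gene Pfkp at -1.08 (SE 0.16) and the enolase gene Eno1 at -1.04 (SE 0.16). Of the 10 genes that rose, those with the largest ratios were Slc2a4, the insulin-responsive transporter, at 1.55 (SE 0.19), and 3 genes with only a lower bound. That bound was set on each NGN3+ array against the lowest signal well above background or the probe's own signal where that was higher. The 3 genes were the hexokinase-domain gene Hkdc1 (at least 4.27-fold higher, adjusted p = 0.00526), the neuronal enolase gene Eno2 (at least 1.9-fold higher, adjusted p = 0.00276) and Hk3 (at least 1.86-fold higher, adjusted p = 0.0389). For these genes 2, 2 and 1 of the 3 NGN3+ arrays gave a signal well above background, in that order. None of the 4 testis copies measured passed this comparison.

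Upstream sequences of 2 of the 3 testis forms and of a somatic partner are shown, from RefSeq on GRCm38.p6, each with the 250 bases before the start site. Whether they bear on the higher levels in NGN3+ cells was not tested. Capitals mark GGGCGG, the GC box, and TGACG, which is part of the cyclic AMP response element TGACGTCA, each searched on both strands.
Pgk2 (chr17:40208610-40208859, minus strand): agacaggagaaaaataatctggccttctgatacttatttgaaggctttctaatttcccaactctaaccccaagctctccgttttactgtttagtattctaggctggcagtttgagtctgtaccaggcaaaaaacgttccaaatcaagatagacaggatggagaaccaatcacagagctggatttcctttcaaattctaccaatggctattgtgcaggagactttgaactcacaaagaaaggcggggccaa
Pgk1 (chrX:106186850-106187099, plus strand): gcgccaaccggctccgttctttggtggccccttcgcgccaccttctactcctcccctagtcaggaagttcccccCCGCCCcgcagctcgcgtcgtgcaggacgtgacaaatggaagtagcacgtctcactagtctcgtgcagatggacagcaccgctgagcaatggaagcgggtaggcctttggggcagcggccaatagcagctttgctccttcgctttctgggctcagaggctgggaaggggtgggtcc
Ldhc (chr7:46861013-46861262, plus strand): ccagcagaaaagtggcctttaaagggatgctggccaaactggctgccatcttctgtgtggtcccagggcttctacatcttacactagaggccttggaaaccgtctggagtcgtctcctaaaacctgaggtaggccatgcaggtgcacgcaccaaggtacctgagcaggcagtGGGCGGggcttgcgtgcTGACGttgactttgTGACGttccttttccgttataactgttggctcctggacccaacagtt
The Pgk2 window held 3 CpG and neither motif, the Pgk1 window 17 CpG and 1 GC box, and the Ldhc window shown 8 CpG, 1 GC box and 2 TGACG. A second Ldhc window (chr7:46861237-46861486), before a later start, held 3 CpG and neither motif. Over 32851 promoter windows of the same length the median was 6 CpG, 32.7% held GGGCGG, 17.8% held TGACG and 1.5% held TGACGTCA, which among the members was found in 1 of the 2 Ldha windows. The 2 Gapdhs windows held 0 and 1 CpG and neither motif, against 8 CpG for Gapdh. A match of letters is a description, and Slc2a3 is named only.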

How the data were processed

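RNA of 12 samples was hybridised to 1-colour Agilent arrays. Per the file headers, the authors extracted each spot's intensity with Agilent Feature Extraction 10.7.1.1 or 10.7.3.1, and the processed signal they deposited is background-subtracted. The deposited log2 table holds the same signal minus each array's 75th percentile, at a constant difference for 99.8% to 99.9% of probes, and served as an alternative.

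Here log2 of the processed signal was taken without outlier spots (103 to 161 per array, 0 saturated), spots of a probe were averaged, and the 75th percentile (intensity 318.4 to 675.2) was subtracted. Probes well above background on all 3 arrays of a compared group were tested with limma 3.58.1 (R 4.3.3), over the 9 sorted arrays or, against whole testes, all 12, with Benjamini-Hochberg adjustment over all probes tested and a threshold of 0.05. The code was tested on simulated data. Balances between isozymes were compared by exact two-sided permutation. Each gene was taken by its brightest probe. The text names all members, every testis copy of the pathway list, the 10 called genes of that list with the largest ratios in 2 comparisons, and the 3 genes nearest to each testis form. Members and lists were chosen with earlier results of these data known. Precision is limited by how few arrays there are, and limma p-values judge a difference against the spread between samples. That spread was shared over samples of 1 mouse (GFRα1+ and KIT+) and of 2 pooled mice (NGN3+). Probe coordinates are those of the files (mm9), and promoter sequences come from RefSeq (GRCm38.p6). Alternatives covered scaling, background, filters, slide, replicate number, the methods' t-test, the deposited table and leaving out each array.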

Additional observations from a re-analysis of the deposited data

How the results depend on the processing

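The rises of Ldhc, Pgk2, Gapdhs, Ldha and Hk1 in NGN3+ over GFRα1+ cells kept their direction and passed under every alternative run. Over all alternatives, 1273 log2 ratios of members stayed on their side of the threshold, 31 no longer passed, 10 newly passed and 16 changed sign. The number of members lower in NGN3+ than in GFRα1+ cells was 2, where 11558 of all 31839 probes tested were lower. It was 1 after quantile normalization (10504 probes lower), 1 with the narrower percentile (7969) and 0 with slide as a block (7663). When arrays were left out in turn it was 1 to 2 (8330 to 11617 probes lower). Calls over all probes thus fell in these settings too. The number lower in KIT+ than in NGN3+ cells was 1, where 5464 of 32306 probes were lower. With no filter on dim probes it was 0 (4893 of 55641 probes lower), and 0 with the methods' t-test (4555). With slide as a block it was 2 (5914), and 2 within slide 2 (5742 of 32308). Leaving out arrays gave 0 to 2 (4170 to 5915 probes lower). The number lower in KIT+ than in GFRα1+ cells was 2, where 12139 of 30579 probes were lower. After quantile normalization it was 0 (11730 probes lower), and 0 with slide as a block (9975). The narrower percentile (10512), no filter (17632 of 55641) and the t-test (10666) gave 1. Normexp (13961 of 30599) and the stricter filter on dim probes (11561 of 24970) gave 3. Leaving out arrays gave 1 to 3 (10562 to 12228 probes lower), with 3 without NGN3+ replicate 1 or 3, where Slc2a3 passed.

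Signs changed for small ratios. For NGN3+ over GFRα1+ cells, Ldhb was 0.07 after quantile normalization, 0.12 with the narrower percentile, 0.39 with slide as a block and within slide 2, and -0.29 to 0.06 when arrays were left out (0.06 and 0.05 without GFRα1+ replicates 1 and 2, 0.03 without NGN3+ replicate 3), Pgk1 was 0.04, 0.06 and, with normexp, 0, and Slc2a3 was -0.03 without NGN3+ replicate 3, in a range up to 0.75. For KIT+ over NGN3+ cells, Ldhc was -0.12 without NGN3+ replicate 1 and -0.01 without KIT+ replicate 1, in a range up to 0.30, Hk1 was 0.02 without NGN3+ replicate 2 and 0.10 without KIT+ replicate 2, in a range from -0.21, and Pgk2 minus Pgk1 was 0.03 and 0.17 without these arrays, in a range from -0.47. Gapdh in KIT+ over GFRα1+ cells was 0.09 after quantile normalization. Ldhc minus Ldhb in NGN3+ cells against whole testes was 0.15 with normexp and 0.09 without NGN3+ replicate 1, in a range from -0.50. With the Ldhc probe A_55_P2153131, an alternative chosen after seeing the data, Ldhc minus Ldha against whole testes was -0.85, -0.80 and -0.51 in NGN3+ cells with the 3 Ldha probes, and in KIT+ cells -0.32 and -0.20 with 2 of them, and Ldhc minus Ldhb in KIT+ cells was -0.63. The cause was not tested. With normexp, 4547 probes rose and 14221 fell in NGN3+ against GFRα1+ cells.

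Same-numbered samples correlated by -0.55 to 0.26 after each probe was centred on its group mean. With so few arrays per group this cannot settle whether the numbers pair samples, and samples were treated as unpaired. The fit with the replicate block gave 5 members that rose and 2 that fell in NGN3+ against GFRα1+ cells and changed no call. NGN3+ and KIT+ arrays shared no slide with whole testes, and members were well above background on every array.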
